A study of Mus musculus with 6 samples.

Results

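The lysosomal proton pump, the cathepsins and the LAMP proteins were followed in mouse CD8+ T cells activated with or without DOPAC. Their genes were taken by symbol from the deposited expression table, as every row whose name begins with Atp6v or Atp6ap, every cathepsin named Cts with a single final letter other than Ctsw, and Lamp1 and Lamp2. This gave 28 of the 11175 listed genes, namely 16 genes of the pump and its accessory proteins, 1 pump pseudogene (Atp6v0c-ps2), 9 cathepsins and 2 LAMPs. All 28 had a mean of at least 1 FPKM (a level scaled for transcript length and library size) over the libraries, the limit set for testing. The cells came from spleens of mice of genotype WT and were activated for 48 h with αCD3/αCD28, antibodies to the CD3 chains of the antigen receptor and to the costimulatory receptor CD28. In 3 libraries the cells had also received DOPAC (3,4-dihydroxyphenylacetic acid, a catechol that cells form from dopamine), and 3 control libraries came from activated cells without it. The labels used here give no dose of DOPAC, no age or sex of the mice, and do not say whether replicates were separate animals or cultures, so the p-values measure a spread between libraries that may be technical.

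The pump, or V-ATPase, is a rotary machine that spends ATP to move protons into lysosomes. Its V1 sector in the cytosol splits ATP and its V0 sector in the membrane carries the protons. Cathepsins are proteases that work in the acid so made, and LAMP1 and LAMP2 are heavily glycosylated proteins that line the lysosomal membrane. In cytotoxic T cells the secretory granules are modified lysosomes, cathepsin C trims granzymes to their active form, and LAMP1 appears on the cell surface when granules are released. TFEB and TFE3 are transcription factors known to switch on many lysosomal genes through a short promoter sequence called the CLEAR element.

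RefSeq promoters were searched for the letters of that element because it is the sequence feature best known to be shared by lysosomal genes. Of the 28 genes, 20 had a promoter entry on GRCm38.p6, reaching from 250 bases before the RefSeq start of the transcript to 50 bases after it. The inner 8 letters of the CLEAR consensus, TCACGTGA, read the same on both strands and were found in 5 of the 20 genes (25.0%), against 1.12% of all 27025 genes with an entry. The same letters with G before and C after them, the full consensus, were in 0 of the 20 and in 0.37% of all genes. Capitals mark these 8 letters in the sites below, which are given 5′ to 3′ on the strand of the gene with 10 flanking bases on each side.
Atp6v1a, chr16:44139374-44139401: tttttttaaaTCACGTGAtaggcttaac
Atp6v0d1, chr8:105566051-105566078: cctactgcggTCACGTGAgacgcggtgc
Atp6v0e, chr17:26676388-26676415: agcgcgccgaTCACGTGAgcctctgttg
Ctsd, chr7:142387909-142387936: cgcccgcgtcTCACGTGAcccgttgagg
Ctsa, first site, chr2:164833750-164833777: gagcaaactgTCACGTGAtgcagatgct
Ctsa, second site, chr2:164833767-164833794: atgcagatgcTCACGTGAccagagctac
The shorter E-box CACGTG, which lies within the longer motifs, was in 8 of the 20 genes (40.0%) and in 8.09% of all genes. Its part ACGTG, the core letters of the element bound by hypoxia-inducible factors, was in 10 of the 20 and in 21.8% of all genes on either strand. Such matches describe letters and not bound sites. The sites of Atp6v1a, Atp6v0e, Ctsd and Ctsa lie within the spans of these genes in GENCODE M21, which begin before the RefSeq starts next to these sites.

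The whole upstream stretches of Atp6v1a and Ctsd are shown because both hold TCACGTGA and their transcripts had log2 fold changes of opposite sign, with the largest positive value of the members for Atp6v1a. The motif begins 132 bases before the RefSeq transcript start in Atp6v1a and 99 bases before it in Ctsd. In GENCODE M21 the genes reach further upstream, to 44139705 and 142388038, so both sites lie within the annotated genes there. Each line gives the 250 bases before the RefSeq start, with TCACGTGA in capitals.
Atp6v1a, chr16:44139260-44139509, minus strand: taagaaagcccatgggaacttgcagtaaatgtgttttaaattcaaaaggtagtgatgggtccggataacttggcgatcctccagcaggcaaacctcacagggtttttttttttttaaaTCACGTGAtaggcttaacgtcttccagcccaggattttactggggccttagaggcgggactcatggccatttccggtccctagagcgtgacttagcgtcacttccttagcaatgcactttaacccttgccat
Ctsd, chr7:142387828-142388077, minus strand: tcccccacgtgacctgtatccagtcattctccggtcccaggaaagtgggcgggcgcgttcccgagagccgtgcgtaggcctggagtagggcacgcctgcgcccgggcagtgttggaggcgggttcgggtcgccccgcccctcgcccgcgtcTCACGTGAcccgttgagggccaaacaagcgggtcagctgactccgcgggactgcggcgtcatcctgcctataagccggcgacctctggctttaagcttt

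The libraries held CD8+ T cell transcripts throughout, with all 10 markers of that lineage listed and a summed level of 809 to 910 FPKM with DOPAC and 848 to 905 FPKM in the controls. Control replicate 1 stood apart. Its log2(FPKM + 1) values correlated with those of the other libraries at 0.899 to 0.917 over genes, where the other 5 gave 0.974 to 0.992 among themselves, and 50.6% of all squared deviations from group means fell on it. The plot of log2 fold changes therefore shows every member with and without this library. Read counts cannot be had from FPKM, which leaves the depth unknown, and the small number of libraries limits the precision. Because these are bulk samples, fewer cells of a type and less RNA per cell cannot be told apart.

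No difference in transcripts of the pump, the cathepsins and the LAMPs was detected between the groups. None of the 28 members passed the threshold (limma, Benjamini-Hochberg adjusted p under 0.05 over 10887 genes), as none of all genes tested did (0%), and their adjusted p-values lay between 0.801 and 0.987. At an unadjusted p under 0.05 there were 0 members, against 456 genes or 4.19% of all. On the log2(FPKM + 1) scale, which understates changes of low genes, the 28 fold changes of DOPAC over control lay between -0.51 and 0.44 with a median of 0.018, beside a median of 0.066 over all genes tested. Of the members, 15 were positive (53.6%), against 62.1% of all genes. Without control replicate 1 the median over members was -0.046 and 11 were positive (39.3%), beside -0.011 and 47.3% over all genes. The 95% intervals, which are not adjusted for the number of genes, stayed within a 1.5-fold change of FPKM + 1 in either direction for 23 members, against 48.0% of all genes. The 5 with a wider reach were Atp6v1a, Atp6v1f, Atp6v0a2, Ctsc and Lamp2. Without control replicate 1 all 28 intervals stayed within that limit, against 84.3% of all genes. In that comparison 3 members, Atp6v1a, Ctsc and Ctsd, had an unadjusted p under 0.05, against 14.5% of all genes, and 0 members had an adjusted p under 0.05, against 2 genes or 0.0184%.

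**Figure D1:**
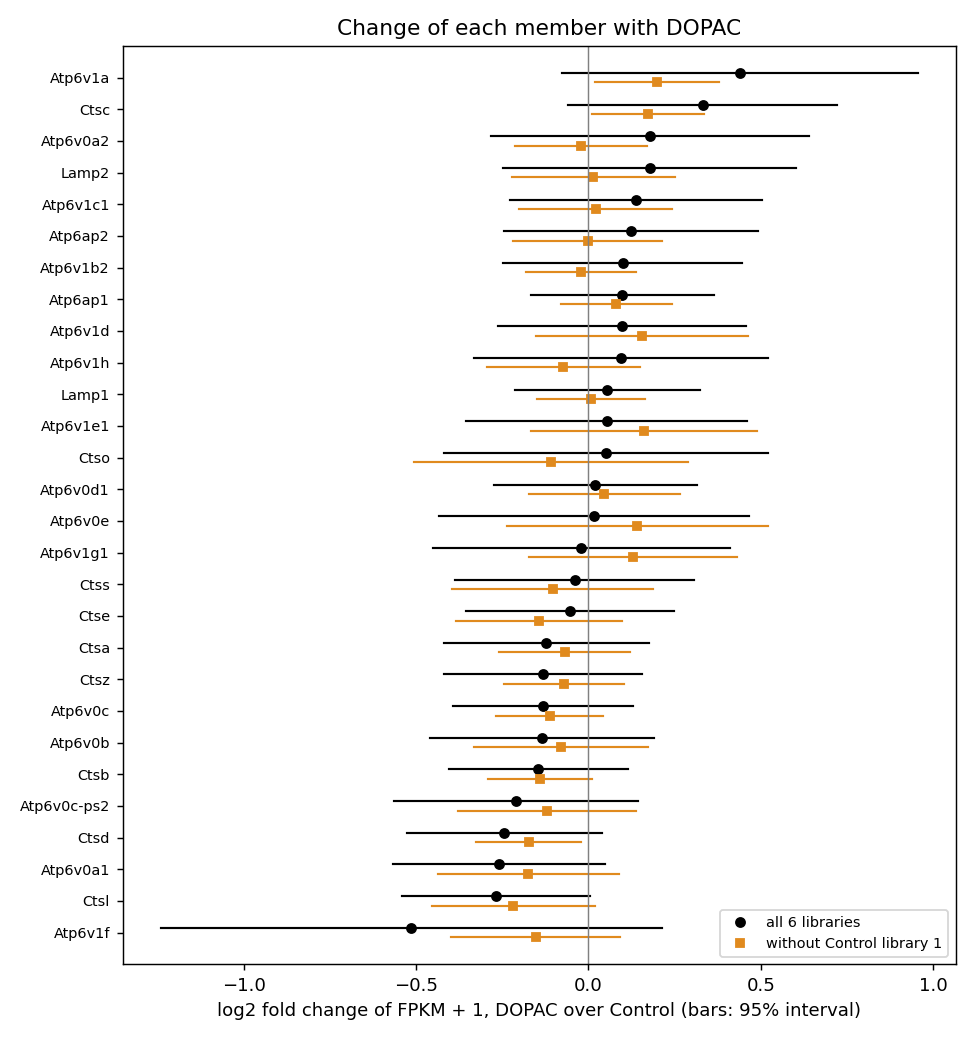
Log2 fold change of FPKM + 1, DOPAC over control, for each of the 28 members (rows), with 95% intervals as bars, from all 6 libraries (black circles) and without control replicate 1 (orange squares). Values run from -0.51 for Atp6v1f to 0.44 for Atp6v1a with all libraries, and from -0.22 for Ctsl to 0.20 for Atp6v1a without control replicate 1.

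The groups did not overlap in 8 members. All DOPAC libraries lay above all controls in 3 of 28 (10.7%), Atp6v1a, Atp6ap1 and Ctsc, where 12.4% of all genes did so. All DOPAC libraries lay below all controls in 5 of 28 (17.9%), Atp6v0c, Atp6v0a1, Ctsb, Ctsd and Ctsl, where 4.8% of all genes did so. None of these 8 passed the test, and no inference is drawn from the shares. Without control replicate 1 the DOPAC libraries lay above in the same 3 members, against 15.3% of all genes, and below in 6 members, the same 5 with Ctse, against 21.5%.

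**Figure D2:**
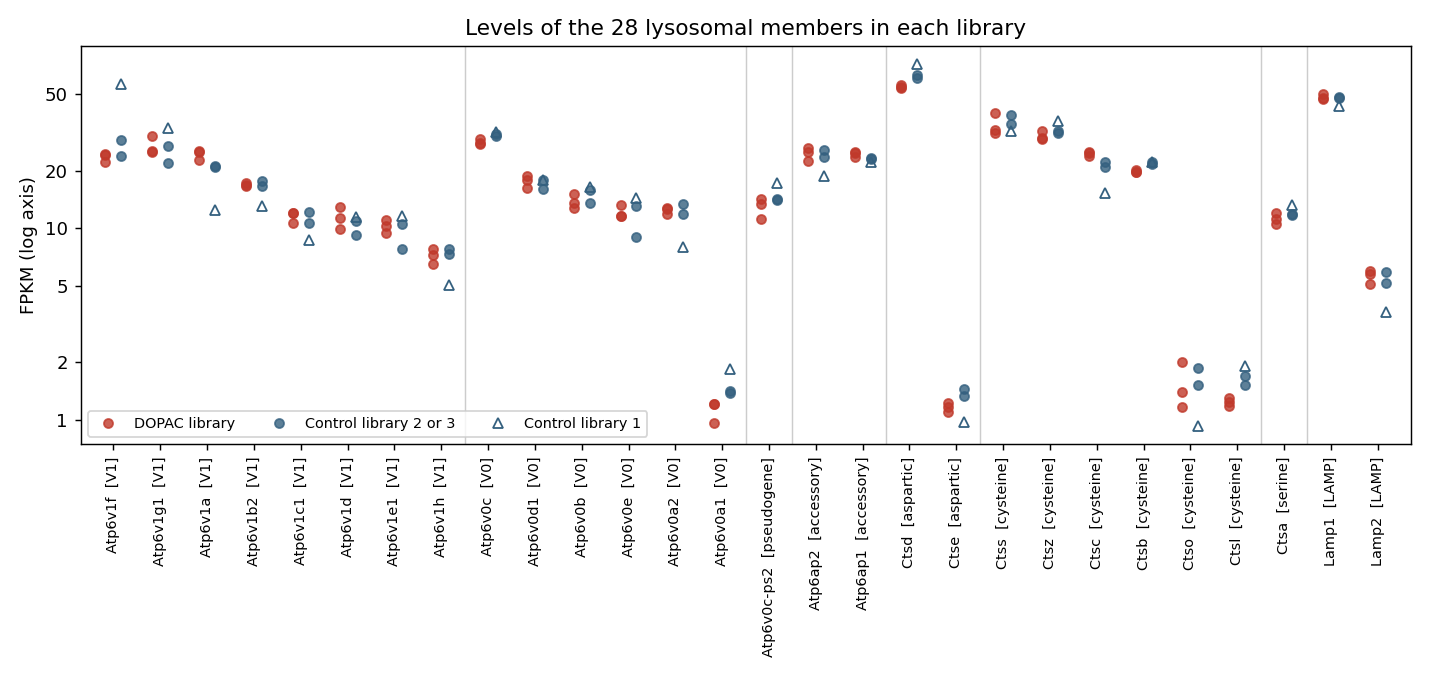
FPKM on a log axis of each member in the 3 DOPAC libraries (red) and the 3 control libraries (blue, with control replicate 1 as an open triangle), grouped by role. Ctsd, Lamp1, Ctss and Ctsz lead, each at 29.1 FPKM or more in every library, while Atp6v0a1, Ctse, Ctso and Ctsl lie between 0.934 and 2.00 FPKM.

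Among the 8 genes of the V1 sector, Atp6v1a had the largest positive log2 fold change. Atp6v1a encodes the catalytic A subunit that binds ATP and lies on chromosome 16 at 44085402 to 44139705 (GENCODE M21, GRCm38). It measured 22.8, 25.0 and 25.3 FPKM with DOPAC, against 12.4, 21.2 and 20.9 FPKM in the controls. The DOPAC libraries were all higher, and the lowest control, replicate 1, lay far below the other controls. The log2 fold change was 0.44 (limma adjusted p = 0.801; 95% interval -0.078 to 0.95). Without control replicate 1 it was 0.20 (limma adjusted p = 0.321; 95% interval 0.020 to 0.38), less than its value with all libraries by over 1.5 times. Atp6v1b2, the B subunit that forms the catalytic ring with A, measured 17.2, 16.7 and 16.7 FPKM with DOPAC and 13.1, 16.6 and 17.7 FPKM in the controls. Its groups overlapped, and its log2 fold change of 0.10 became -0.021 without control replicate 1.

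Atp6v1f, a subunit of the central rotor shaft, had the largest negative value, which rested on control replicate 1. It lies on chromosome 6 at 29467718 to 29470512 and measured 22.1, 24.0 and 24.3 FPKM with DOPAC, against 56.6, 23.8 and 28.9 FPKM in the controls. Control replicate 1 lay far above the other 5 libraries, and control replicate 2 lay among the DOPAC libraries. The log2 fold change was -0.51 (limma adjusted p = 0.801; 95% interval -1.24 to 0.21), and -0.15 without control replicate 1 (limma adjusted p = 0.514; 95% interval -0.40 to 0.093). Of its longest transcript, 12.5% of the 50-base words also occur in another annotated gene, so some reads may be shared.

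The other V1 subunits overlapped between the groups. Atp6v1g1, of the outer stalks that hold the motor still, measured 30.1, 24.9 and 25.2 FPKM with DOPAC and 33.5, 21.96 and 26.8 FPKM in the controls. It shares 19.2% of its 50-base words with other annotated genes, and its log2 fold change was -0.020 with all libraries and 0.13 without control replicate 1. Atp6v1e1, also of the outer stalks, measured 11.1, 10.2 and 9.40 FPKM with DOPAC and 11.6, 7.76 and 10.5 FPKM in the controls, a log2 fold change of 0.053, which was 0.16 without control replicate 1 and -0.10 without control replicate 2. In Atp6v1g1 and Atp6v1e1 control replicate 1 was the highest library and control replicate 2 the lowest.

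Atp6v1c1, the C subunit that fastens V1 to V0, measured 10.7, 11.99 and 12.04 FPKM with DOPAC and 8.71, 10.7 and 12.1 FPKM in the controls. Atp6v1h, a regulatory subunit at the same joint, measured 6.53, 7.23 and 7.83 FPKM with DOPAC and 5.08, 7.38 and 7.84 FPKM in the controls. Both had control replicate 1 lowest. Atp6v1d, of the central shaft, measured 12.9, 11.3 and 9.88 FPKM with DOPAC and 11.5, 9.21 and 10.9 FPKM in the controls, with no library apart. The log2 fold changes of these 3 were 0.14, 0.094 and 0.097, and 0.021, -0.073 and 0.16 without control replicate 1, in the order named.

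Of the 6 genes of the V0 sector, 3 had positive and 3 negative log2 fold changes, with a median of -0.059. Atp6v0c, the proteolipid whose copies form the proton-carrying ring, was the most abundant of them and lies on chromosome 17 at 24163866 to 24169702. It measured 27.6, 27.9 and 29.0 FPKM with DOPAC, against 31.9, 30.2 and 30.9 FPKM in the controls. All DOPAC libraries were lower by a small margin, with a log2 fold change of -0.13 (limma adjusted p = 0.801; 95% interval -0.39 to 0.13) and -0.11 without control replicate 1. The processed pseudogene Atp6v0c-ps2, a copy of this gene on chromosome 6, measured 14.2, 11.2 and 13.3 FPKM with DOPAC and 17.1, 14.1 and 13.99 FPKM in the controls, a log2 fold change of -0.21, or -0.12 without control replicate 1. Of its 50-base words 90.1% occur in other annotated genes, nearly all of them in Atp6v0c, so its reads and those of the 12.2% of Atp6v0c words that are shared cannot be assigned with certainty. Atp6v0b, the second type of ring proteolipid, measured 15.1, 13.6 and 12.7 FPKM with DOPAC and 16.5, 13.6 and 15.8 FPKM in the controls, and the groups overlapped. Its log2 fold change was -0.13, or -0.080 without control replicate 1 and -0.21 without control replicate 2.

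The a subunit of V0, which sorts the pump to different membranes, was represented mainly by transcripts of Atp6v0a2 and Tcirg1. Atp6v0a2 measured 11.9, 12.8 and 12.5 FPKM with DOPAC and 7.98, 13.4 and 11.9 FPKM in the controls. Its log2 fold change was 0.18 (limma adjusted p = 0.813; 95% interval -0.28 to 0.64), and -0.022 without control replicate 1, the lowest library. Atp6v0a1 measured 0.965, 1.21 and 1.21 FPKM with DOPAC, against 1.86, 1.38 and 1.41 FPKM in the controls. The DOPAC libraries were all lower at this level near the filter, with a log2 fold change of -0.26 (limma adjusted p = 0.801; 95% interval -0.57 to 0.049) and -0.17 without control replicate 1. With a pseudocount of 0.1 in place of 1 it was -0.42. Tcirg1, the a3 subunit known from bone-resorbing cells, has another symbol and is no member. It measured 8.65, 7.80 and 7.92 FPKM with DOPAC and 6.86, 9.49 and 9.08 FPKM in the controls, a log2 fold change of -0.044, or -0.17 without control replicate 1 and 0.035 without control replicate 2. The fourth a isoform, Atp6v0a4, was not among the listed genes.

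Atp6v0d1, which links the ring to the shaft, measured 16.1, 17.8 and 18.7 FPKM with DOPAC and 17.9, 16.1 and 17.8 FPKM in the controls. Its log2 fold change of 0.020 (95% interval -0.27 to 0.31) was among the smallest of the members, and its sign turned with either DOPAC replicate 3 or control replicate 2 left out. Atp6v0e, a small membrane subunit, measured 13.2, 11.7 and 11.5 FPKM with DOPAC and 14.5, 9.02 and 13.1 FPKM in the controls. The controls of Atp6v0e spread wider than the DOPAC libraries and enclosed them. Its log2 fold change of 0.016 was 0.14 without control replicate 1 and -0.17 without control replicate 2, so its direction rests on single libraries. Both genes carry TCACGTGA at a RefSeq start, as printed above.

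The accessory proteins of the pump were near 24 FPKM on average. Atp6ap1, also called Ac45, helps to assemble V0 and lies on the X chromosome at 74297097 to 74304721. It measured 25.1, 24.8 and 23.4 FPKM with DOPAC, against 22.2, 22.9 and 23.2 FPKM in the controls. The DOPAC libraries were all higher, the closest values differing by less than 1 FPKM, and the log2 fold change was 0.098 (limma adjusted p = 0.815; 95% interval -0.17 to 0.36). Atp6ap2, the prorenin receptor, measured 22.5, 26.2 and 25.0 FPKM with DOPAC and 18.7, 23.5 and 25.7 FPKM in the controls, with overlapping groups and a log2 fold change of 0.12, or -0.0019 without control replicate 1.

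The pump genes listed were those of the broadly expressed isoforms. Those known for restricted tissues, Atp6v1b1, Atp6v1c2, Atp6v1e2, Atp6v1g2, Atp6v1g3, Atp6v0d2 and Atp6v0e2, were not among the listed genes, nor was Atp6ap1l. Summed over its 16 genes the pump reached 266 ± 1.25 FPKM with DOPAC and 269 ± 18.4 FPKM in the controls (SD, n = 3 each). The DOPAC libraries, at 266, 267 and 265 FPKM, lay within the span of the controls, at 284, 248.6 and 275 FPKM. Of the 16 genes 11 had positive log2 fold changes and 8 did without control replicate 1, against 62.1% and 47.3% of all genes.

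**Figure D3:**
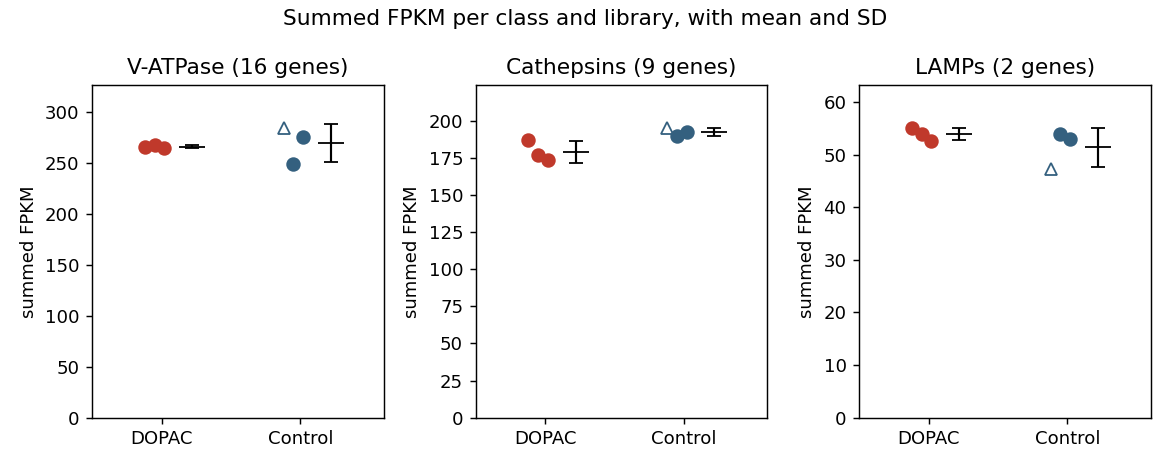
Summed FPKM of the 16 pump and accessory genes, the 9 cathepsins and the 2 LAMPs in each DOPAC library (red, left) and control library (blue, right, control replicate 1 as an open triangle), with mean and SD as black bars. Pump sums with DOPAC lie between those of the controls, and cathepsin sums are 173 to 187 FPKM with DOPAC and 189 to 195 FPKM in the controls.

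Cathepsin transcripts had mostly lower values with DOPAC, by small margins. Of the 9 genes 7 had negative log2 fold changes, and 8 did without control replicate 1. Positive values made up 22.2% and 11.1%, against 62.1% and 47.3% of all genes. The medians were -0.12 and -0.11, beside 0.066 and -0.011 over all genes tested, and 0 of the 9 passed the test. The cathepsins summed to 179 ± 7.17 FPKM with DOPAC and 192 ± 2.75 FPKM in the controls (SD, n = 3 each), or 0.0594 ± 0.000313% and 0.0651 ± 0.00215% of all FPKM. The sums were 187, 177 and 173 FPKM with DOPAC, against 195, 189 and 192 FPKM in the controls. The groups did not overlap, DOPAC replicate 1 coming closest to the controls. This separation rested on Ctsd, since the sums of the other cathepsins overlapped between the groups. No test was run on the sums. Of the single genes 3 of 9 lay wholly below the controls and 1 above, against 4.8% and 12.4% of all genes.

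Ctsd, the aspartic endoprotease of lysosomes, was the most abundant of all members and makes up the larger part of the difference between these sums. It lies on chromosome 7 at 142375911 to 142388038 and measured 55.7, 54.6 and 53.8 FPKM with DOPAC, against 71.8, 62.7 and 61.0 FPKM in the controls. Every DOPAC library was below every control, and control replicate 1 was the highest. The log2 fold change was -0.24 (limma adjusted p = 0.801; 95% interval -0.53 to 0.038), and -0.17 without control replicate 1 (limma adjusted p = 0.320; 95% interval -0.32 to -0.022). Of the 50-base words of its longest transcript 36.6% also belong to Gm49369, a gene model on the same strand that was not among the listed genes, so part of its reads cannot be assigned with certainty. Ctse, the other aspartic cathepsin, was near the filter with 1.23, 1.17 and 1.10 FPKM with DOPAC and 0.979, 1.46 and 1.33 FPKM in the controls, and the groups overlapped. Its log2 fold change of -0.053 was -0.14 without control replicate 1 and 0.012 without control replicate 2.

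Ctsb, a cysteine protease that also trims peptides from protein ends, lies on chromosome 14 at 63122462 to 63145923. It measured 19.7, 20.2 and 19.6 FPKM with DOPAC, against 22.1, 22.2 and 21.7 FPKM in the controls. The libraries of each group lay close together and the groups were apart, with a log2 fold change of -0.15 (limma adjusted p = 0.801; 95% interval -0.41 to 0.11) and -0.14 without control replicate 1 (adjusted p = 0.362). The exons of Ctsb overlap those of Fdft1 on the opposite strand, and the library kit does not keep the strand. Fdft1, an enzyme of cholesterol synthesis, measured 17.96, 22.8 and 23.2 FPKM with DOPAC and 19.2, 19.0 and 20.4 FPKM in the controls, a log2 fold change of 0.11, or 0.22 without DOPAC replicate 1.

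Ctsl, an endoprotease that in mice also cuts the invariant chain in the thymus, was low. It measured 1.31, 1.18 and 1.25 FPKM with DOPAC, against 1.91, 1.70 and 1.52 FPKM in the controls, and lies on chromosome 13 at 64359337 to 64370890. All DOPAC libraries were lower. The log2 fold change was -0.27 (limma adjusted p = 0.801; 95% interval -0.54 to 0.0036), and -0.22 without control replicate 1 (adjusted p = 0.370). With a pseudocount of 0.1 it was -0.42. An antisense gene and a pseudogene overlap its exons, and 28.1% of its 50-base words are shared with other annotated genes.

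**Figure D4:**
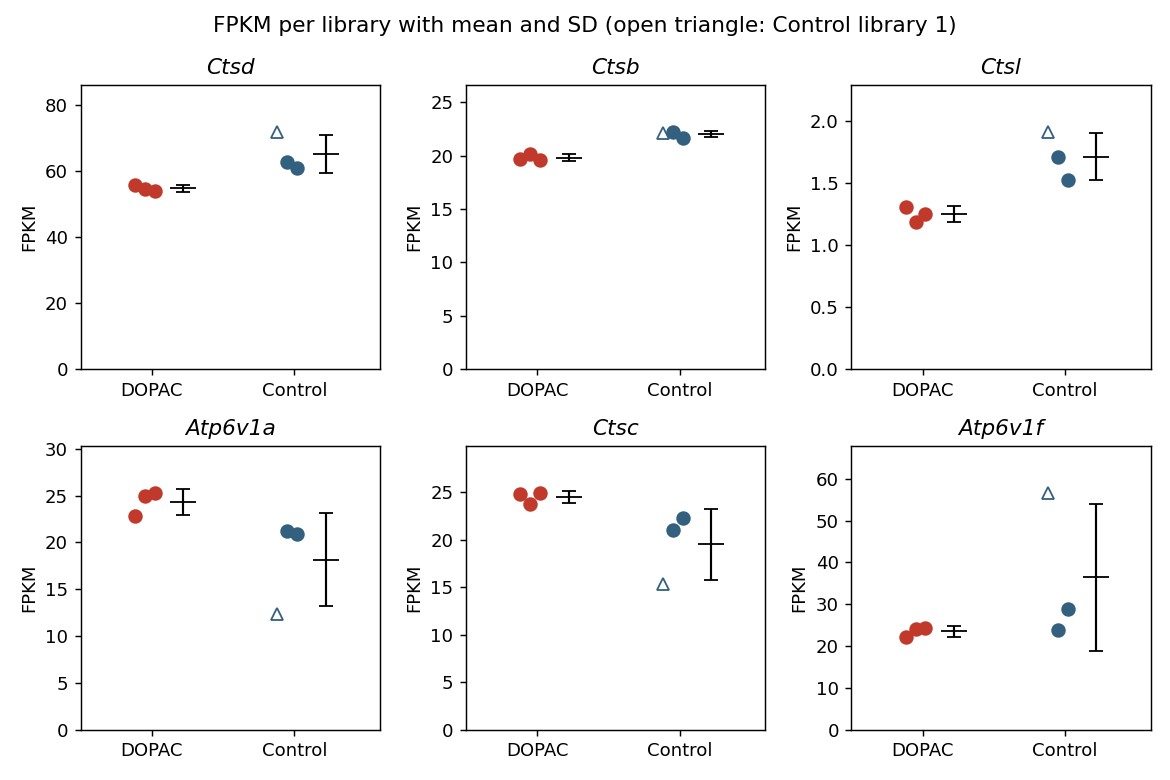
FPKM per library of Ctsd, Ctsb, Ctsl, Atp6v1a, Ctsc and Atp6v1f, with DOPAC on the left (red), control on the right (blue, control replicate 1 as an open triangle), and mean and SD as black bars. The groups are apart in Ctsd, Ctsb, Ctsl, Atp6v1a and Ctsc, while in Atp6v1f control replicate 1 at 56.6 FPKM lies above the other libraries, which lie between 22.1 and 28.9 FPKM.

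Ctsc had a log2 fold change of the opposite sign. It encodes the dipeptidyl peptidase that activates granzymes and lies on chromosome 7 at 88278085 to 88310888. It measured 24.8, 23.8 and 24.9 FPKM with DOPAC, against 15.3, 21.0 and 22.2 FPKM in the controls. The DOPAC libraries were all higher and lay close together, while control replicate 1 was the lowest library. The log2 fold change was 0.33 (limma adjusted p = 0.801; 95% interval -0.060 to 0.72), and 0.17 without control replicate 1 (limma adjusted p = 0.329; 95% interval 0.011 to 0.33), smaller by over 1.5 times.

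The remaining cathepsins overlapped between the groups. Ctss, a cysteine protease best known from antigen-presenting cells, was the most abundant of its class here. It measured 39.7, 32.5 and 31.3 FPKM with DOPAC and 32.2, 35.1 and 39.0 FPKM in the controls, a log2 fold change of -0.040 (95% interval -0.39 to 0.31). Without control replicate 1 it was -0.10, and without control replicate 3 it was 0.029. Ctsz, a carboxypeptidase, measured 32.0, 29.1 and 29.7 FPKM with DOPAC and 36.3, 31.5 and 32.2 FPKM in the controls. Ctsz had a log2 fold change of -0.13, or -0.071 without control replicate 1, its highest library.

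Ctsa, the serine carboxypeptidase that also shields beta-galactosidase and neuraminidase from breakdown, measured 11.1, 12.02 and 10.5 FPKM with DOPAC and 13.3, 11.9 and 11.7 FPKM in the controls. Its exons overlap 2 other genes on the opposite strand, and its log2 fold change was -0.12 (95% interval -0.42 to 0.17), or -0.069 without control replicate 1, its highest library. Ctso measured 1.40, 2.00 and 1.17 FPKM with DOPAC and 0.934, 1.88 and 1.52 FPKM in the controls, with a wide spread in both groups and a log2 fold change of 0.052, or -0.11 without control replicate 1. Ctsf, Ctsg, Ctsh and Ctsk, and the rodent cathepsins Ctsj, Ctsm, Ctsq and Ctsr, were not among the listed genes.

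Macrophage and stromal markers had lower summed levels in every DOPAC library than in any control. Of 14 macrophage markers 2 were listed, Lyz2 and C1qb, with a summed level of 2.89 to 11.04 FPKM with DOPAC and 12.4 to 31.6 FPKM in the controls. Lyz2, the lysozyme gene of macrophages and other myeloid cells, measured 10.4, 2.57 and 3.01 FPKM with DOPAC and 11.2, 30.2 and 22.9 FPKM in the controls. Its DOPAC libraries were all lower, with DOPAC replicate 1 and control replicate 1 close together. The other 12, Csf1r, Adgre1 and Itgam among them, were not listed, and no listed macrophage marker was at 0 in any library. Of 7 stromal markers 5 were listed, with sums of 6.78 to 29.5 FPKM with DOPAC and 43.2 to 47.5 FPKM in the controls. The collagen gene Col1a1 measured 0.160, 9.12 and 9.16 FPKM with DOPAC and 16.2, 15.1 and 13.96 FPKM in the controls, and Col1a2, Col3a1 and Sparc were likewise lowest in DOPAC replicate 1 and lower in every DOPAC library than in any control. Pecam1, an endothelial gene, overlapped between the groups, with a log2 fold change of 0.12 (-0.085 without control replicate 1), and at 6.14 FPKM made up most of the sum in DOPAC replicate 1. Few markers of other blood cells were listed. Of the neutrophil, dendritic cell and CD4+ T cell markers 0 of 8, 0 of 7 and 0 of 2 were listed. Of 7 B cell markers 1 was listed, Cd79b, at 1.47 to 2.61 FPKM with DOPAC and 1.54 to 2.49 FPKM in the controls. Of 4 NK cell markers 1 was listed, Eomes, which activated CD8+ T cells also express, at 2.92 to 3.12 FPKM with DOPAC and 3.54 to 4.93 FPKM in the controls. Of 6 red cell markers 2 were listed, with overlapping sums of 0.280 to 3.02 FPKM with DOPAC and 2.72 to 10.4 FPKM in the controls. Macrophages express several cathepsins strongly, and the part of these cells in the cathepsin values was not tested.

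Neither LAMP gene passed the test, and the groups overlapped in both. Lamp1, on chromosome 8 at 13159161 to 13175338, measured 49.9, 48.0 and 46.9 FPKM with DOPAC and 43.5, 48.0 and 47.9 FPKM in the controls. Of its 50-base words 7.11% are shared with Grtp1 on the opposite strand. The groups overlapped, and the log2 fold change was 0.054 (limma adjusted p = 0.897; 95% interval -0.21 to 0.32), or 0.0087 without control replicate 1 (95% interval -0.15 to 0.17). Lamp2, whose isoforms include the receptor of chaperone-mediated autophagy, measured 5.11, 6.001 and 5.79 FPKM with DOPAC and 3.67, 5.94 and 5.19 FPKM in the controls. Its log2 fold change was 0.18 (limma adjusted p = 0.805; 95% interval -0.25 to 0.60), and 0.014 without control replicate 1, its lowest library. On this per-length scale the Lamp1 level was above the Lamp2 level in every library.

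The deviation of control replicate 1 varied with the summed length of the annotated exons of the genes. Its log2(FPKM + 1) value minus the mean of the other 5 libraries was 1.17 for Atp6v1f, with a summed exon length of 1063 bp, and 0.37 for Atp6v1g1, with 1135 bp. It was -0.84 for Atp6v1a, with 6044 bp, and -0.46 for Atp6v1h, with 9746 bp. Over the 28 members, which share that library, the deviation and the log2 exon length correlated with Pearson's r of -0.57 and Spearman's rho of -0.52, given as a description. Against this order, 6 members longer than the median length of 3911 bp were high in control replicate 1, by 0.084 (Atp6v1d) to 0.36 (Atp6v0a1), Ctsl with 0.28 and Ctsb with 0.097 among them. The 5 shorter members Ctss, Atp6ap2, Lamp1, Atp6ap1 and Ctse were low, with values of -0.37 for Atp6ap2 to -0.10 for Atp6ap1. The log2 fold changes themselves correlated with log2 exon length at r = 0.47 with all libraries and r = 0.13 without control replicate 1. With the trend on length removed from each library, Atp6v1a had a log2 fold change of 0.31, Atp6v1f of -0.42, Ctsd of -0.25, Ctsb of -0.27 and Ctsl of -0.40.

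**Figure D5:**
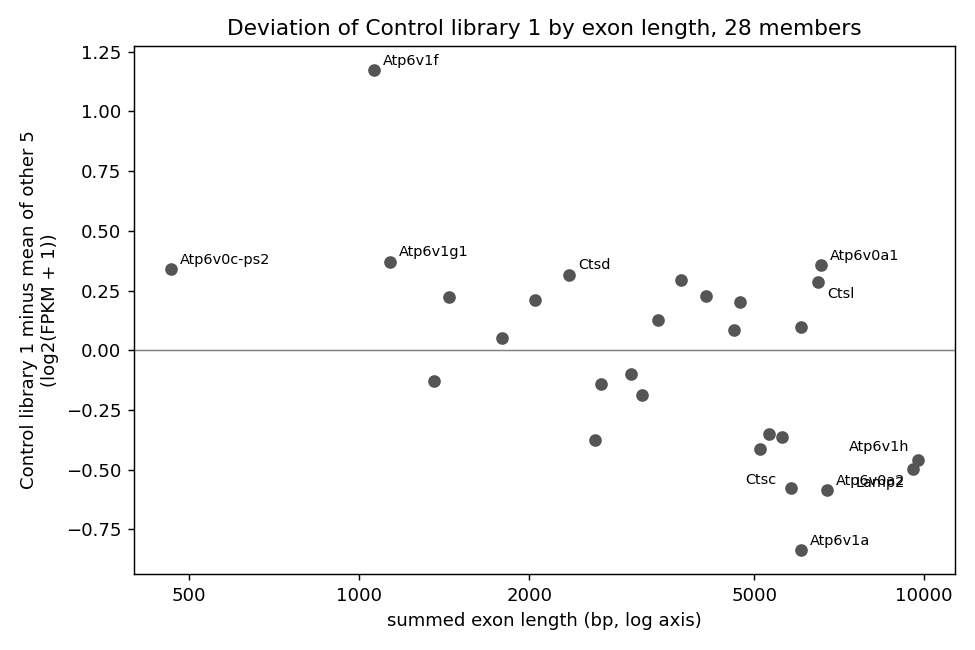
Value of control replicate 1 minus the mean of the other 5 libraries, in log2(FPKM + 1), against summed exon length in bp on a log axis for the 28 members. Atp6v1f at 1063 bp stands at 1.17 and Atp6v1a at 6044 bp at -0.84, and the points run from upper left to lower right with r = -0.57.

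In 5 of the 6 lists of genes that build, regulate or share the lysosome with the members, the median turned from positive to negative when control replicate 1 was left out. The share of positive values over all genes was 62.1% with that library and 47.3% without it. Among 10 tested assembly factors and partners of the pump 7 had positive log2 fold changes with a median of 0.058, and 0 passed the test. Leaving out control replicate 1 gave 4 positive values and a median of -0.034. Vma21, which assembles V0 in the endoplasmic reticulum, measured 8.40, 8.32 and 8.96 FPKM with DOPAC and 5.49, 6.56 and 7.81 FPKM in the controls. Its DOPAC libraries were all higher, with a log2 fold change of 0.34 (95% interval -0.021 to 0.70). Oxr1, a relative of proteins known to regulate the pump, had 0.29, or 0.15 without control replicate 1.

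Among 43 other lysosomal hydrolases and their cofactors 24 were positive, 19 negative and 0 passed, with a median of 0.019. At a limma unadjusted p under 0.05 there were 3 of the 43, against 4.19% of all genes. Of the 43, 20 were positive without control replicate 1, and the median was -0.043. Lgmn, the asparaginyl endopeptidase that matures cathepsins, measured 1.38, 1.39 and 1.09 FPKM with DOPAC and 2.40, 3.04 and 1.87 FPKM in the controls, a log2 fold change of -0.58 (95% interval -0.96 to -0.20; limma unadjusted p = 0.009). Gm2a, the activator of ganglioside breakdown, had 0.39 (95% interval 0.048 to 0.73).

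Among 27 other lysosomal membrane proteins 15 were positive, 12 negative and 0 passed, with a median of 0.0084. A limma unadjusted p under 0.05 was found for 3 of the 27, Cd63, Cd68 and Abcb9, against 4.19% of all genes. Abcb9, named after its values were seen, was higher in all DOPAC libraries, with a log2 fold change of 0.46 (95% interval 0.086 to 0.83). All DOPAC libraries lay above all controls in 5 of the 27 and below them in 2, where 12.4% and 4.8% of all genes did so. Positive values numbered 11 without control replicate 1, and the median was -0.060. Cd63, a tetraspanin of lysosomes and granules, measured 0.196, 0.704 and 0.755 FPKM with DOPAC and 2.22, 1.85 and 1.22 FPKM in the controls. Cd68, a LAMP relative abundant in macrophages, measured 1.98, 1.88 and 1.92 FPKM with DOPAC and 3.02, 3.61 and 2.42 FPKM in the controls. In both genes all DOPAC libraries were lower, with log2 fold changes of -0.84 and -0.45, and Lyz2 and C1qb were lower in the same libraries. Among the DOPAC libraries replicate 1 had the lowest Cd63 value and the highest Cd68 and Lyz2 values. A link between these genes was not tested. The calcium channel gene Mcoln1 had -0.027 (95% interval -0.29 to 0.24). With DOPAC replicate 1 left out Mcoln1 had 0.0046, and with control replicate 1 left out -0.060.

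Genes of sorting to the lysosome had a median of 0.050 over 16 tested, 10 of them positive and 0 past the test. The median was -0.069 with 4 positive when control replicate 1 was left out. Vps41, of the HOPS tethering complex, had 0.35, or 0.21 without control replicate 1, and the adaptor gene Gga1 had -0.22, or -0.15 without control replicate 2. The 22 tested regulators around TFEB and mTORC1 had a median of 0.018 with 12 positive and 0 past the test. With control replicate 1 left out the median was -0.083 with 7 positive, and it was also negative, at -0.024 and -0.0063, without DOPAC replicate 2 and without DOPAC replicate 3. All DOPAC libraries lay above all controls in 3 of the 22 (Rraga, Rragd and Rheb) and below them in 2 (Tfe3 and Tfeb), where 12.4% and 4.8% of all genes did so. Tfe3 measured 2.88, 3.02 and 2.96 FPKM with DOPAC and 3.65, 3.89 and 4.004 FPKM in the controls. Its DOPAC libraries were all lower, with a log2 fold change of -0.29 (95% interval -0.56 to -0.023; limma unadjusted p = 0.0372, adjusted p = 0.801). Tfeb measured 1.55, 1.32 and 1.70 FPKM with DOPAC and 1.92, 1.83 and 1.76 FPKM in the controls, also lower in all DOPAC libraries by a small margin, with -0.17 (95% interval -0.45 to 0.11), or -0.11 without DOPAC replicate 2. Rragd, a Rag GTPase that acts on mTORC1 at the lysosome, measured 1.72, 1.72 and 2.24 FPKM with DOPAC and 1.38, 1.45 and 1.605 FPKM in the controls. Its DOPAC libraries were all higher, with a log2 fold change of 0.22 (95% interval -0.082 to 0.52), or 0.14 without DOPAC replicate 3.

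A list of cystatins and serpins, families of protease inhibitors, was added for possible inhibitors of cathepsins. Of its 6 tested genes 3 were positive, with a median of -0.014 and 0 past the test. The count was 5 with a median of 0.061 without control replicate 1. The median was also positive, at 0.047, when DOPAC replicate 1 was left out. Serpinb6b, a serpin of lymphocytes whose action on these cathepsins was not examined, measured 34.8, 22.1 and 23.6 FPKM with DOPAC. In the controls Serpinb6b measured 15.1, 18.2 and 19.7 FPKM. All its DOPAC libraries were higher, replicate 1 by the most, and the log2 fold change was 0.56 (95% interval 0.070 to 1.04; limma unadjusted p = 0.0305), or 0.36 without DOPAC replicate 1. Cst3, which encodes cystatin C and is named after its values were seen, had -0.35 (95% interval -1.16 to 0.47), or 0.070 without control replicate 1, with control replicate 1 at 37.5 FPKM and the other 5 libraries between 14.7 and 17.97 FPKM.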

How the data were processed

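TRIzol extraction, SMART-Seq HT cDNA and Nextera XT libraries were used, per the labels' protocols, and these kits do not keep the strand. The submitters' processing notes name cutadapt 1.9, HISAT2 2.2.1 and the build mm10. How FPKM were estimated and genes filtered is not given in the sources used here. Per the file headers, the authors deposited FPKM of every gene in every library with their own log2 fold change, p-values and adjusted p-values. In all 11175 rows the authors' deposited log2 fold change matched, within 1e-06, the one computed here from log2(FPKM + 1), and their p-values were not used. No steps of whole reads were seen among low values.

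From the FPKM, log2(FPKM + 1) was computed and 10887 genes with a mean of at least 1 FPKM were tested with R 4.3.3 and limma 3.58.1 (linear model with a mean-variance trend, 6.75 total degrees of freedom, Benjamini-Hochberg adjustment over all genes, threshold 0.05). The model was tested on simulated data, where it recovered most of the largest changes put in but none of the smallest, which were about the size of the largest fold change among the members, so that a lack of calls among them does not show that they did not differ. Alternatives changed the pseudocount, filter, scaling, variance model and weights, removed a trend on exon length (11067 genes had a length in GENCODE M21), added the replicate number as a block, or left out a library. Deviations from the group means correlated between same-numbered libraries at 0.341, 0.159 and 0.282, each over 0.1. These values alone do not settle whether the numbers pair the libraries, and no shared animal or day is named in the labels. The values printed come from the fit without this block, and the blocked fit is an alternative. Some differently numbered libraries correlated as well, DOPAC replicate 3 with control replicate 2 at 0.240. DOPAC replicate 2 correlated more with control replicate 3, at 0.189, than with control replicate 2. Members and lists were chosen with earlier results of these data known. The naming rule asked for every library's values for the 3 members with the largest log2 fold change in each direction and the most abundant member of each role. It also asked for them for Atp6v1a, Atp6v0c, Atp6ap2, Ctsb, Ctsd, Ctsl, Ctss, Lamp1 and Lamp2. The values of the remaining members were added. Each list gave at most the 2 genes with the smallest p, with Tcirg1, Tfeb, Tfe3 and Mcoln1. Cst3, Rraga, Rheb and Abcb9 lie outside the rule, and marker genes and Fdft1 stand beside values they touch. Figures used Python 3.11.15 with matplotlib 3.10.9.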

Additional observations from a re-analysis of the deposited data

How the results depend on the processing

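None of the 28 members was called under any of the 17 alternatives, and 16 of them kept their sign in all, Atp6v1a, Ctsc, Ctsb, Ctsd and Ctsl included. The alternatives that changed only the filter, the variance model or the block with all libraries leave each gene's log2 fold change as it is. Signs could not turn under them. The number of genes called over the whole table was 2 with library weights, whose fit stopped before full convergence, and 0 to 2 when single libraries were left out (2 without control replicate 1). With the replicate block 0 genes and 0 members were called, and no call changed. The median over members was 0.018, which this block cannot change when all libraries are present. The median log2 fold change of the members, 0.018, was -0.026 with quantile normalization, -0.041 with equal medians, -0.039 with the length trend removed, -0.025 with the replicate block and without control replicate 1, and -0.046 to 0.059 when single libraries were left out. Leaving out the pseudogene, chosen after seeing the data, gave 0.020. The median over the list of cystatins and serpins, -0.014, was 0.080 with library weights and 0.081 with the replicate block and without control replicate 1.

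Signs turned in 40 of 472 member values, the largest being -0.17 for Atp6v0e without control replicate 2, and the cause was not tested. The 472 include the values from alternatives under which no sign could turn. Leaving out control replicate 1 moved the log2 fold change of 22 of the 28 members by over 1.5 times, and each other library moved 7 to 11. With quantile normalization Atp6v0d1 had -0.025 and Atp6v0e -0.027. With equal medians Atp6v0d1 had -0.038, Atp6v0e -0.043, Atp6v1e1 -0.0060, Ctso -0.0066 and Lamp1 -0.0041. With the length trend removed Atp6v1b2 had -0.0095, Atp6v0e -0.052, Atp6v1e1 -0.027, Ctso -0.053, Atp6v1h -0.078, Ctss 0.024 and Atp6v1g1 0.063. With library weights Ctso had -0.086, Lamp1 -0.0014, Atp6v0a2 -0.010 and Atp6v1g1 0.11. With the replicate block and without control replicate 1 Atp6v1b2 had -0.035, Ctso -0.079, Lamp1 -0.015, Atp6v1h -0.014 and Atp6v1g1 0.043. When single libraries were left out the ranges were -0.14 to 0.012 for Ctse, -0.021 to 0.18 for Atp6v1b2, -0.027 to 0.076 for Atp6v0d1, -0.17 to 0.14 for Atp6v0e, -0.10 to 0.16 for Atp6v1e1, -0.11 to 0.18 for Ctso, -0.0019 to 0.22 for Atp6ap2, -0.073 to 0.20 for Atp6v1h, -0.022 to 0.32 for Atp6v0a2, -0.14 to 0.029 for Ctss and -0.16 to 0.13 for Atp6v1g1. The depth of the libraries is unknown and sets no limit that could be computed.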
